A study of Ovis aries with 49 samples.

Results

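The brains of 8 sheep fetuses (Ovis aries) were compared, 4 from overfed ewes and 4 from ewes on a restricted diet. These are 8 of the 49 samples of the study and 8 of its 45 fetal RNA libraries, chosen by the diet and tissue that their labels give. The study sequenced RNA of brain, kidney and lung from 15 fetuses, and DNA of the 4 rams that sired them, to read parental expression and its relation to the diet of the mother. The ewes were Western white-faced and the rams were Dorset. From gestation day 30 the overfed ewes received 140% and the restricted ewes 60% of the recommended energy intake, against 100% in control ewes. All fetuses were sampled at gestation day 135, and each of the 8 fetuses came from a different ewe. The overfed fetuses 1 to 4 were sired by rams 1, 3, 4 and 4, and the restricted fetuses 1 to 4 by rams 1, 2, 3 and 4. No cross with the breeds exchanged was analysed here, so the parent and the breed that an allele came from cannot be told apart.

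Most genes are read from both parental chromosomes. An imprinted gene carries a mark set in the egg or the sperm and is read mainly from the chromosome of 1 parent, and several such genes act in fetal growth, nutrient transfer and the brain. A sequence variant near a gene can also make 1 allele more active than the other, whichever parent it came from. RNA reads over a heterozygous single-nucleotide variant (SNP) count both alleles, and the genotype of the ram shows which allele is paternal.

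A SNP is called informative here where the ram was homozygous and the fetus heterozygous. The deposited lists hold only informative SNPs with at least 20.5 reads, of which at least 70.02% came from 1 allele. Only their autosomal SNPs were used here. A SNP that is not listed may have been balanced or thinly covered, and the lists do not tell these apart. The paternal share is the percent of reads that carried the allele of the ram, and it could therefore not lie between 30 and 70 at a single listed SNP.

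The brain libraries listed 846, 409, 487 and 983 SNPs in overfed fetuses 1 to 4, against 588, 476, 482 and 652 in restricted fetuses 1 to 4. The summed reads at these SNPs ran from 16734 to 45220.5 in overfed fetuses and from 19716.5 to 28106.5 in restricted fetuses. Overfed fetuses 1 and 4 held the deepest lists, and overfed fetus 2 the thinnest. Reads were not tied to single molecules. The limma and permutation p-values and errors below rest on the spread between fetuses, with no weight for read depth. The main limma fits also used the control brains for this spread. The lists could not check the brain label, since a marker gene is listed only where 1 allele carried most reads. Of 10 neuronal markers 7 had an informative SNP and 2 had listed reads, NEFM (a neurofilament subunit) and MAP2 (a dendritic microtubule protein). The GABA-synthesising enzyme GAD1 was listed in 1 overfed fetus. Of other cell types, the endothelial CDH5 was listed in 2 overfed fetuses, the endothelial VWF in 1 restricted fetus and the microglial CX3CR1 in 1 overfed fetus. No marker of astrocytes, oligodendrocytes, kidney or lung was listed in any of the 8 libraries, although 6 of 6, 5 of 6, 6 of 6 and 5 of 5 of them, in that order, had an informative SNP. Listed reads were also absent for the glutamatergic, oligodendrocyte precursor, and choroid plexus and ependyma markers. Of these, 2 of 3, 2 of 3 and 3 of 3, in that order, had an informative SNP. The 4 blood and 3 muscle markers had no informative SNP.

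Of the informative SNPs of each fetus, 2.42%, 1.31%, 1.76% and 2.89% were listed in overfed fetuses 1 to 4, against 1.83%, 1.82%, 1.63% and 2.31% in restricted fetuses 1 to 4. The overfed fetuses held both the lowest and the highest value, and the restricted fetuses lay inside their range. The means were 2.09 ± 0.701% in overfed and 1.89 ± 0.293% in restricted fetuses (SD, n = 4 each), a difference of 0.199 percentage points (exact permutation test, two-sided, p = 0.571). The smallest p that 4 against 4 fetuses allow is 0.0286. Without overfed fetus 4 the difference was −0.0671. The median depth was 30.5, 28, 29 and 31 reads per listed SNP in overfed fetuses 1 to 4, against 29.5, 29.5, 29 and 29 in restricted fetuses 1 to 4.

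The side of the listed SNPs gave the smallest p of the 8 library values compared. The paternal allele carried most reads at 37.9%, 38.9%, 43.7% and 40.2% of listed SNPs in overfed fetuses 1 to 4, against 43.7%, 46.0%, 45.4% and 45.6% in restricted fetuses 1 to 4. Overfed fetus 3 and restricted fetus 1 met at the edge of the groups, and the other overfed fetuses lay below every restricted fetus. The means were 40.2 ± 2.54% in overfed and 45.2 ± 1.01% in restricted fetuses (SD, n = 4 each), a difference of −4.99 percentage points (exact permutation test, two-sided, p = 0.0571). After Benjamini-Hochberg adjustment over the 8 library values compared, this exact p was 0.457, so the difference did not pass. Between fetuses of the same ram the difference was −5.76 for ram 1, −6.56 for ram 3 and −3.59 for ram 4. The 7 brains of control ewes ran from 38.4% to 46.0%, so that overfed fetus 1 lay just below and restricted fetus 2 just above them.

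**Figure D1:**
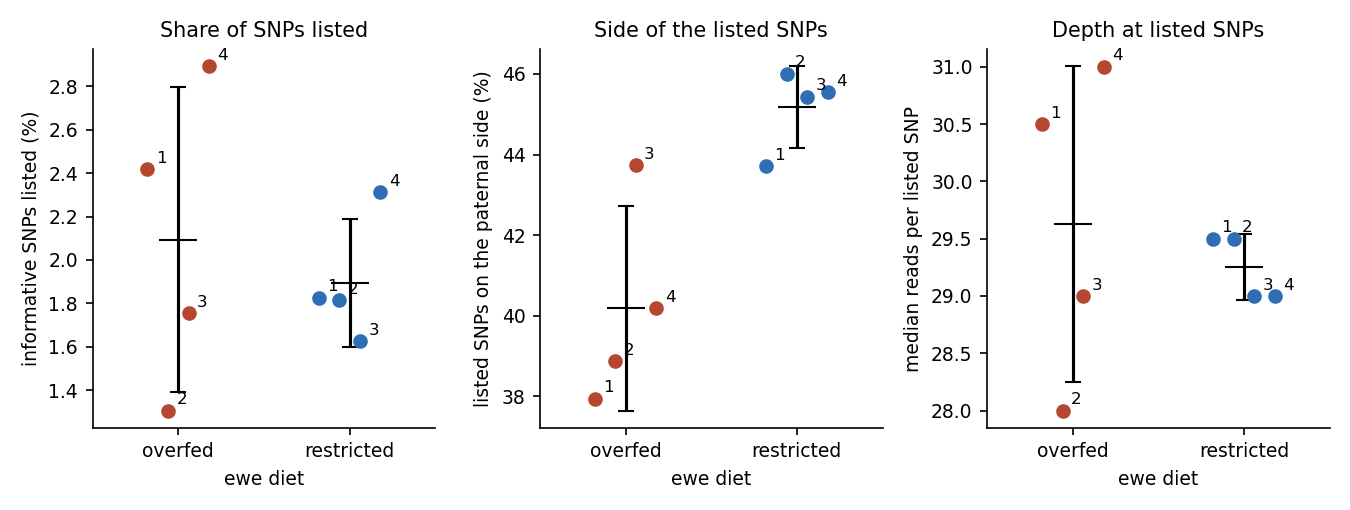
Percent of informative SNPs listed, percent of listed SNPs on the paternal side and median reads per listed SNP, by ewe diet. Points are fetuses with their replicate number, bars are the mean ± SD (n = 4 each). The axes do not start at 0. In the middle panel 3 overfed fetuses, at 37.9% to 40.2%, lie below all restricted fetuses.

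The difference in side held its sign when the set of SNPs was changed. Among SNPs informative in both diets with the same paternal base, the paternal side took 38.0 ± 3.42% in overfed and 42.9 ± 1.63% in restricted fetuses (SD, n = 4 each; difference −4.93, exact permutation p = 0.0286, unadjusted). Among SNPs listed in both diets it took 26.7 ± 6.10% in overfed and 30.2 ± 3.97% in restricted fetuses (difference −3.47, exact permutation p = 0.314). Where the paternal base was the reference base the difference was −4.02 (exact permutation p = 0.0857), and where it was the alternative base it was −6.94 (exact permutation p = 0.0571). These sets were added after the difference had been seen. The share of all listed reads that was paternal averaged 45.2 ± 2.53% in overfed and 46.9 ± 1.60% in restricted fetuses, a smaller difference of −1.71 (exact permutation p = 0.371). It was −1.05 without overfed fetus 1 and −2.94 without overfed fetus 3.

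Few SNPs were listed under both diets. In all, 49576 SNPs with the same paternal base were informative in at least 1 fetus of each diet. Of these, 427 were listed in both diets, 1136 only in overfed fetuses, 841 only in restricted fetuses and 47172 in neither. Of 630 SNPs informative in all 8 fetuses, 25 were listed in all 8, 170 in some and 435 in none. At a SNP that 2 fetuses both listed, they agreed on the side at 98.3% to 100% of SNPs for each of the 4 pairs across diets that shared a ram, and at 98.6% to 100% for each of the 12 pairs with different rams.

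The paternal share of single genes did not differ between the diets at the threshold. The lists held 2351 genes in either diet and 577 in both, of which 157 were listed in at least 2 overfed and 2 restricted fetuses and could be tested. The paternal share of a gene is taken over all its listed SNPs, and its difference is given on the logit scale, the natural log of the ratio of paternal to maternal reads after 0.5 was added to each. limma called 0 of 157 genes at an adjusted p under 0.05 (0%), and 6 had an unadjusted p under 0.05 (3.82%). Of these 6, the share was higher in overfed fetuses for FBXO18 and lower for 5, among them KIF5C, MFF, PPP1R16B and PSMD12. Over all 157 genes the difference was above 0 for 68 and below 0 for 89 (56.7%), with a median of −0.078. The 2 groups did not overlap for 6 genes with the overfed fetuses higher (3.82%) and for 16 with the overfed fetuses lower (10.2%).

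**Figure D2:**
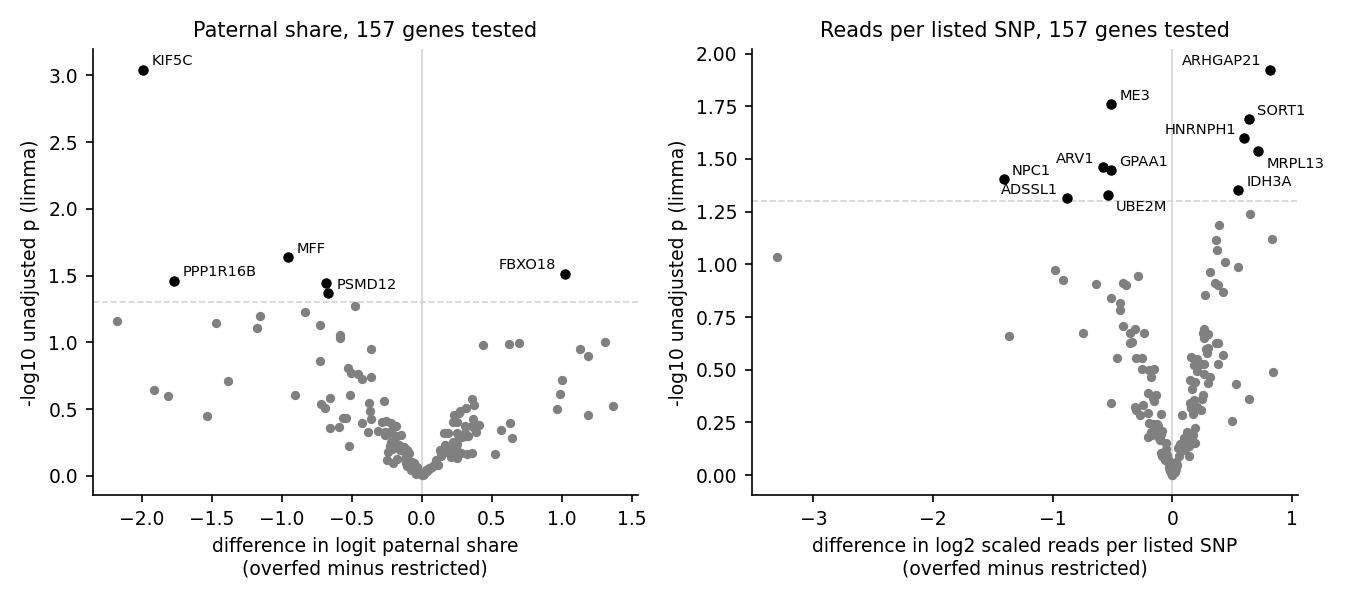
Difference between overfed and restricted fetuses against the −log10 of the unadjusted limma p, for the paternal share (left, logit scale) and for reads per listed SNP (right, log2 scale) of the 157 tested genes. Positive values are higher in overfed fetuses, the dashed line marks an unadjusted p of 0.05, and black points lie above it. None passed the adjusted threshold.

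Of the genes listed in at least 3 fetuses of each diet, the 8 with the smallest unadjusted p for the paternal share are given in turn. MFF, which recruits the machinery of mitochondrial fission, had paternal shares of 6.20%, 1.28% and 5.30% in overfed fetuses 1, 3 and 4, against 9.88%, 16.1% and 6.35% in restricted fetuses 1, 2 and 4. All were strongly maternal, and the 3 overfed values lay below the 3 restricted ones. The logit difference was −0.96 ± 0.35 (SE), with an unadjusted p of 0.023 and an adjusted p of 0.835 by limma, and it was −0.63 without overfed fetus 3. MFF was read at 1 SNP in every fetus, G228597035T on chromosome 2, which was informative in 15 of the 15 fetuses of the study. Such a token gives the reference base, the chromosome position counted from 1 as in the deposited lists, and the alternative base, and the sources used here do not name the genome build.

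ALDH2, the mitochondrial aldehyde dehydrogenase, was read at C61949657A on chromosome 17. Its paternal share was 17.3%, 18.6%, 9.76% and 13.3% in overfed fetuses 1 to 4, against 19.7%, 25.8%, 18.4% and 25.0% in restricted fetuses 1 to 4. Only overfed fetus 2 and restricted fetus 3 overlapped. The means were 14.7 ± 4.01% in overfed and 22.2 ± 3.73% in restricted fetuses (SD, n = 4 each), with a logit difference of −0.48 ± 0.22 (SE, limma adjusted p 0.835). MTCH1, an outer-membrane protein of mitochondria, was read at C10917908A on chromosome 20, at 4.29%, 6.22% and 0.985% in overfed fetuses 1 to 3, against 4.43%, 7.05%, 9.77% and 10.03% in restricted fetuses 1 to 4. The groups overlapped, and the logit difference was −0.83 ± 0.39 (SE, limma adjusted p 0.835). Without overfed fetus 3 the logit difference of MTCH1 was −0.38.

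PSMD12, a subunit of the proteasome lid, had shares of 9.09%, 18.8% and 13.3% in overfed fetuses 1, 3 and 4, against 23.5%, 24.6% and 22.03% in restricted fetuses 1, 2 and 4. At the gene level the groups did not overlap (logit difference −0.67 ± 0.28 SE, limma adjusted p 0.835). The SNP that all 6 fetuses shared, G48850955T on chromosome 11, gave another picture. There the share was 10.7%, 18.8% and 13.3% in overfed fetuses 1, 3 and 4, against 23.5%, 9.76% and 22.03% in restricted fetuses 1, 2 and 4. Restricted fetus 2 thus lay below all overfed fetuses but at the gene level above them, and its gene value also held 2 SNPs listed in no other brain compared here, at 28.1% and 28.9%.

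DCAF6, a substrate receptor of a ubiquitin ligase, had shares of 5.88%, 6.93%, 14.6% and 11.5% in overfed fetuses 1 to 4, against 9.68%, 20.2% and 19.1% in restricted fetuses 1, 2 and 4. The groups overlapped (limma adjusted p 0.835). RPN1, a subunit of the enzyme that attaches sugar chains to proteins, ran the other way, at 28.2%, 28.6% and 29.5% in overfed fetuses 1, 2 and 4, against 16.7%, 19.05% and 25.0% in restricted fetuses 1, 2 and 4. Its overfed values sat together just under the listing limit of 30%, above all restricted values (logit difference 0.44 ± 0.24 SE, limma adjusted p 0.835).

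The last 2 of these 8 genes act on RNA and chromatin. RBM5, a splicing regulator, was at 9.52%, 10.9%, 13.8% and 11.7% in overfed fetuses 1 to 4, against 22.1%, 13.4%, 13.7% and 15.2% in restricted fetuses 1 to 4. The groups overlapped through overfed fetus 3. AKAP8L, a nuclear anchoring protein, was at 34.7%, 15.9% and 19.4% in overfed fetuses 1, 2 and 4, against 7.84%, 20.3% and 12.3% in restricted fetuses 1, 3 and 4. These groups overlapped too, and both genes had a limma adjusted p of 0.835. The high AKAP8L value of overfed fetus 1 joined C7496457A on chromosome 5, at 6.67%, with A7510710G, at 75.6%, a SNP listed in no other of the 8 brains. At C7496457A alone the logit difference was 0.02, against 0.63 for the gene. Without restricted fetus 1 the logit difference of RBM5 was −0.23. FBXO18, a DNA helicase named after its values were seen, was at 16.2% and 17.5% in overfed fetuses 1 and 4, against 3.77% and 7.41% in restricted fetuses 1 and 4, with the overfed fetuses higher for both rams (logit difference 1.02 ± 0.37 SE, limma adjusted p 0.835).

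**Figure D3:**
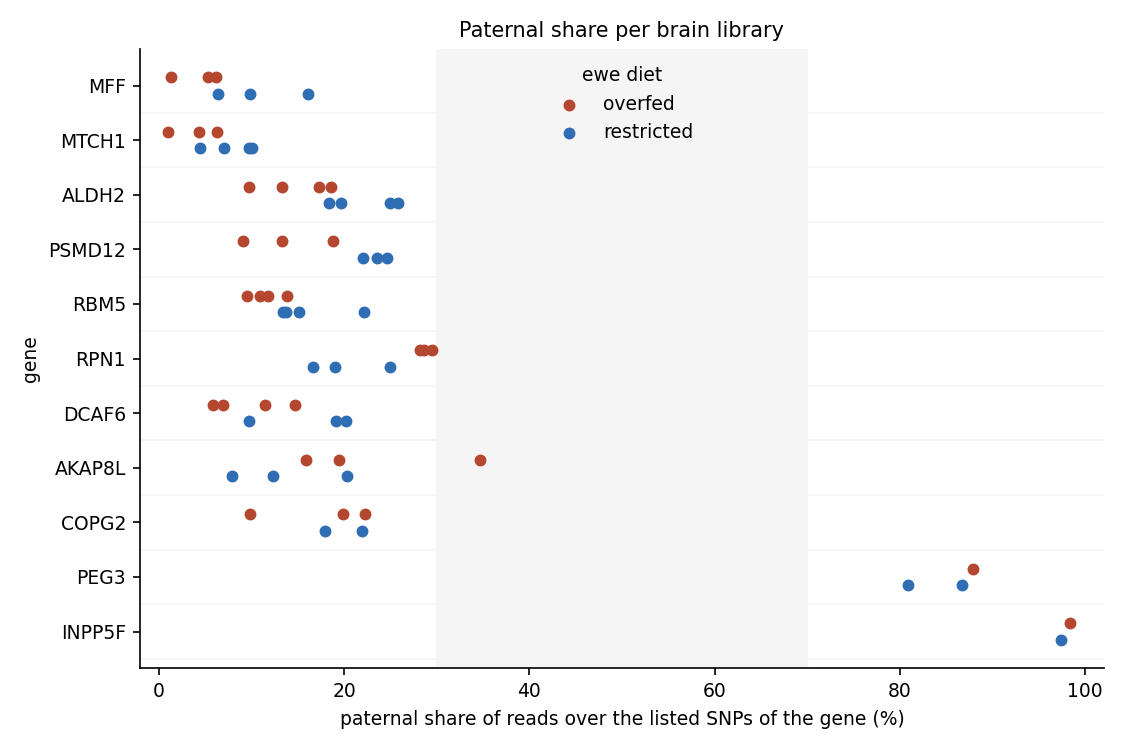
Paternal share of reads per brain library for the 8 genes with the smallest unadjusted p among those listed in 3 or more fetuses of each diet, and for the imprinted genes COPG2, PEG3 and INPP5F. Each point is a fetus, overfed above restricted, and the shaded band from 30% to 70% cannot be reached at a single listed SNP. MFF lies at 1.28% to 16.1% and INPP5F at 97.4% and 98.4%.

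The gene with the smallest p was compared across different SNPs. KIF5C, a motor protein of axonal transport, had paternal shares of 21.1% and 28.7% in overfed fetuses 2 and 4, against 71.4% and 70.7% in restricted fetuses 2 and 3. The overfed fetuses were on the maternal side and the restricted fetuses on the paternal side, with a logit difference of −1.99 ± 0.32 (SE, limma adjusted p 0.142). Both overfed fetuses were read at A159421899T on chromosome 2. Restricted fetus 2 was read at G159422126A and T159422141C, and restricted fetus 3 at G159422794A. No KIF5C SNP was therefore listed under both diets. KIF5C passed the threshold under a quasi-binomial model (adjusted p 0.00330) and when only SNPs with at least 30 reads were kept (limma adjusted p 0.0381), and it was then the 1 gene called.

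AGGF1, an angiogenic factor named here after its values were seen, showed the same arrangement. Its share was 25.5% and 19.5% in overfed fetuses 3 and 4, against 72.4% and 73.6% in restricted fetuses 2 and 4. Overfed fetuses were read at T8029047A and A8029730G on chromosome 7, and restricted fetuses at A8010618G and G8010760A. Of the 104 genes whose overfed and restricted fetuses lay wholly on opposite sides, 10 had any SNP with the same paternal base listed in both diets (9.62%). Of the 473 other genes listed in both diets, 339 had one (71.7%). These 104 genes split into 54 with the overfed fetuses paternal and 50 with them maternal, and 83 of them rested on 1 fetus in each diet.

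Single fetuses held genes with SNPs on both sides. NBR1, a receptor of selective autophagy named after its values were seen, had 2 listed SNPs on chromosome 11. At G42578840T its share was 11.8% and 10% in overfed fetuses 3 and 4, against 17.2% and 17.4% in restricted fetuses 1 and 3. At C42585789T it was 88.0%, 89.6% and 96.0% in overfed fetuses 2, 3 and 4, against 95.9% in restricted fetus 1. Each SNP kept its side under both diets, while the gene value of NBR1 moved with the SNPs that a fetus listed, at 88.0%, 55.9% and 48.9% in overfed fetuses 2, 3 and 4, against 61.4% and 17.4% in restricted fetuses 1 and 3.

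TUBB6, a beta-tubulin, gave a like pattern on chromosome 23. At the alternative paternal base of G43122445T its share was 92.0% in overfed fetus 2 and 92.1% in restricted fetus 3, both sired by ram 3. At the 4 other listed SNPs of TUBB6, where the ram carried the reference base, shares lay between 7.38% and 29.7% in all fetuses with a value. Tubulin genes have near-identical copies, and how the reads of TUBB6 were assigned among them is not stated in the sources at hand. PPP1R16B, a regulator of protein phosphatase 1, was at 20.8%, 72.1% and 25.5% in overfed fetuses 2, 3 and 4, against 76.6% and 81.9% in restricted fetuses 1 and 3 (logit difference −1.77 ± 0.67 SE, limma adjusted p 0.835). At A67202504G on chromosome 13, its 1 SNP listed in more than 1 overfed fetus, overfed fetuses 2 and 3 themselves lay on opposite sides.

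**Figure D4:**
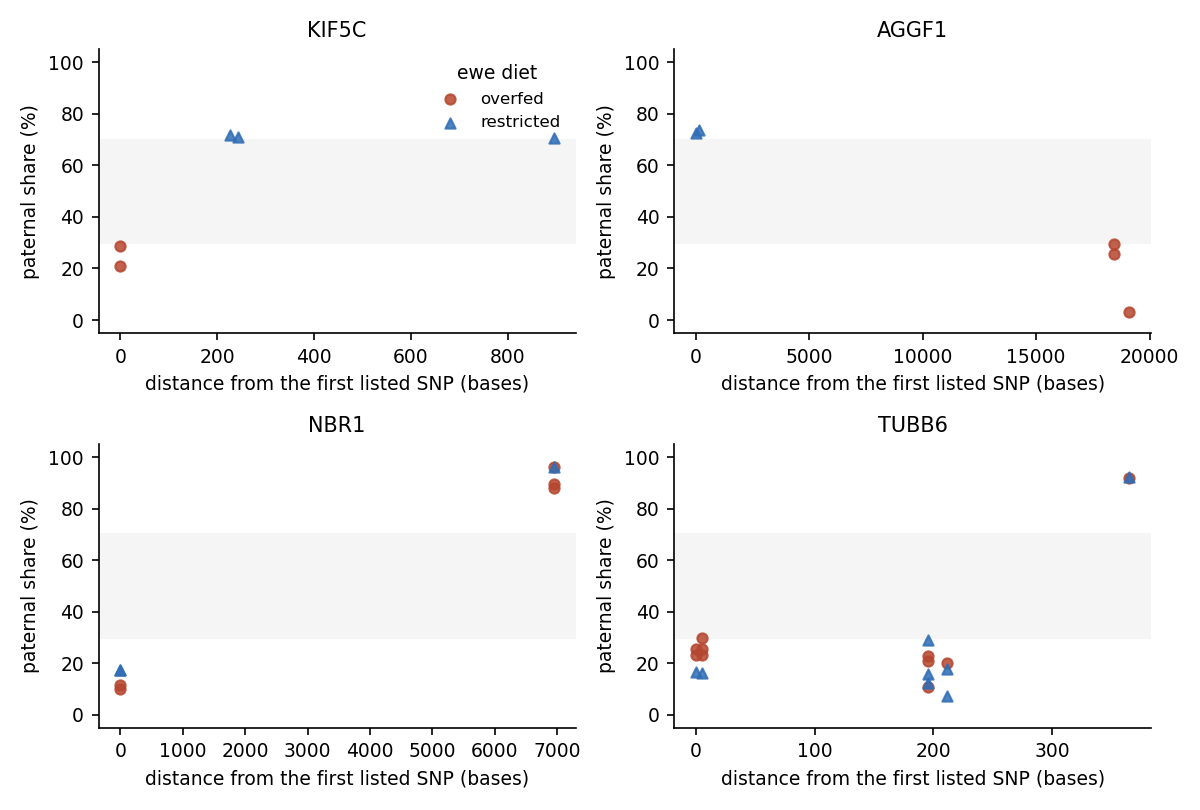
Paternal share at each listed SNP of KIF5C, AGGF1, NBR1 and TUBB6 in overfed (circles) and restricted (triangles) fetuses, against the distance in bases from the first listed SNP of the gene. KIF5C and AGGF1 have no SNP shared between the diets, while in NBR1 and TUBB6 each shared SNP has both diets on the same side.

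A fit within rams 1, 3 and 4, which leaves out restricted fetus 2, tested 104 genes and called 5, NBR1 and SPG7 higher and PPP1R16B, SLC25A46 and KLHL17 lower in overfed fetuses. For NBR1 and PPP1R16B only ram 3 had a value under both diets. Their differences in this fit therefore rested on overfed fetus 2 against restricted fetus 3, which for NBR1 were read at different SNPs. In each of the 5, at least 1 fetus was listed at a SNP that no fetus of the other diet listed or at SNPs on both sides. SPG7, a mitochondrial protease, was read at G13963078C on chromosome 14 at 17.2%, 22.2% and 20.5% in overfed fetuses 1, 3 and 4, against 5.13%, 20.8% and 15.7% in restricted fetuses 1, 3 and 4. At this SNP the groups overlapped, and overfed fetus 2 was read at C13953852T instead, at 75.4%. KLHL17, an actin-binding protein of neurons, was read at C49511428T on chromosome 12 at 6.35%, 6.35% and 16.4% in overfed fetuses 1, 2 and 4, against 10.5% and 6.45% in restricted fetuses 1 and 2. Restricted fetus 4 was read only at C49512842G, at 90.2%.

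At SNPs listed on both sides of the comparison, the same base kept its parental side. Of the 427 SNPs listed in both diets with the same paternal base, 139 were paternal in every fetus, 277 were maternal in every fetus, 10 were opposite between the diets and 1 was mixed. The same side was thus seen at 97.4% of SNPs, against 69.7% of the 577 genes. The 10 opposite SNPs had 1 fetus of each diet listed at each, and lay among others in APBB2, ATF7IP, FAM173A, GNB4, HIPK2, LOC105610305, LOC106991783, RRP12 and TERF2IP. HIPK2, a nuclear kinase, was at 76.1% in overfed fetus 4, against 23.6% in restricted fetus 4. RRP12, which acts in ribosome assembly, was at 78.7% in overfed fetus 4, against 29.6% in restricted fetus 4. LOC105610305 was at 72.1% in overfed fetus 4, against 15.1% in restricted fetus 4. Both fetuses had ram 4 as sire, and these genes were picked from the 10 for that reason.

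The fit over single SNPs tested 134 SNPs listed in at least 2 fetuses of each diet. limma called 0 of them (0%), and 10 had an unadjusted p under 0.05 (7.46%), 1 higher (in FBXO18) and 9 lower in overfed fetuses, with a smallest adjusted p of 0.660. The difference was below 0 for 77 SNPs (57.5%), with a median of −0.092. The groups did not overlap for 6 SNPs with overfed fetuses higher (4.48%) and 14 with them lower (10.4%). Of the 134 SNPs, 132 had the reference base on the paternal side and 112 were informative in at least 10 of the 15 fetuses (83.6%), against 12.5% of the SNPs listed in 1 diet only. All 15 fetuses were informative at 60 of the 134. The SNPs given in this text for ALDH2, RBM5, SLC22A17, TBCB, CLK1, DBN1 and PRRC2A, and the shared SNPs of MFF and PSMD12, were informative in all 15. Whether the side at such SNPs follows the parent was not tested. Without the SNPs informative in 10 or more fetuses, 38 genes and 22 SNPs could be tested for share, and limma again called 0 of each, with 3 genes and 1 SNP at an unadjusted p under 0.05.

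**Figure D5:**
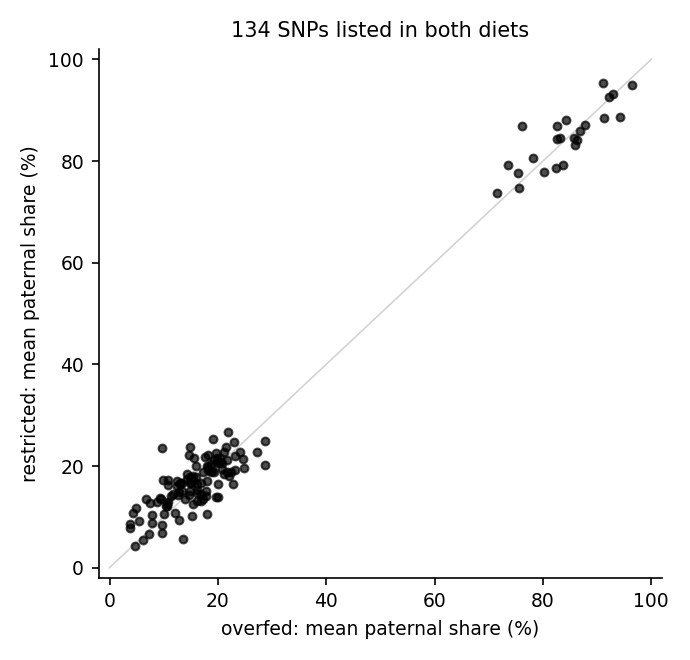
Mean paternal share over overfed fetuses (horizontal, %) against that over restricted fetuses (vertical, %) for the 134 SNPs listed in at least 2 fetuses of each diet, with the line of equality. All lie near the lower left or upper right corner. None differed at an adjusted p under 0.05 by limma.

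SNPs with values in all 8 fetuses showed how far the share of 1 SNP varied. At G21182906T on chromosome 7, in the transporter gene SLC22A17, the share was 18.9%, 24.6%, 16.4% and 16.1% in overfed fetuses 1 to 4, against 17.1%, 17.3%, 24.02% and 17.3% in restricted fetuses 1 to 4. SLC22A17 stayed maternal in every fetus, with overlapping groups.

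At G45793308T on chromosome 14, in TBCB (a tubulin-folding cofactor), the share was 9%, 12.8%, 7.63% and 13.9% in overfed fetuses 1 to 4, against 12.0%, 14.9%, 14.2% and 10.8% in restricted fetuses 1 to 4. At C202173743A on chromosome 2, in the splicing kinase gene CLK1, it was 22.1%, 19.5%, 11.5% and 27.1% in overfed fetuses 1 to 4, against 20.2%, 21.02%, 8.61% and 15.9% in restricted fetuses 1 to 4. At C36387255T on chromosome 5, in DBN1 (the actin-binding protein drebrin of dendritic spines), it was 14.6%, 23%, 11.3% and 19.9% in overfed fetuses 1 to 4, against 16.8%, 16.3%, 3.85% and 16.99% in restricted fetuses 1 to 4. Restricted fetus 3 was the lowest of the 8 in CLK1 and DBN1, and all 3 SNPs were maternal in every fetus with overlapping groups. Of the other SNPs named by depth, those in HNRNPM, RBM5 and MAP4K4 were likewise maternal in all 8 fetuses with overlapping groups.

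At C26708852A on chromosome 20, in PRRC2A (a large RNA-binding protein), the groups did not overlap although all 8 fetuses had a value. The share was 8%, 10.4%, 10.4% and 10.7% in overfed fetuses 1 to 4, against 22.1%, 11.7%, 16.9% and 18.5% in restricted fetuses 1 to 4. The overfed fetuses sat close together, below all restricted ones. The logit difference was −0.59 ± 0.22 (SE) and the limma adjusted p was 0.660. PRRC2A was named after its values were seen.

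Imprinted genes gave few values. Of 37 genes known as paternally expressed and 59 known as maternally expressed in mammals, 10 and 38 had an informative SNP in the 8 brains, and 3 genes were listed under both diets. INPP5F, a phosphoinositide phosphatase gene with a paternally expressed transcript in mouse brain, was 98.4% paternal in overfed fetus 1, against 97.4% in restricted fetus 1, both sired by ram 1. At T38840114G on chromosome 22 the paternal reads were 451 of 459 in overfed fetus 1, against 379 of 390 in restricted fetus 1. PEG3, which codes for a zinc-finger protein and is read from the paternal chromosome in mammals, was 87.9% paternal in overfed fetus 4, against 86.7% and 80.9% in restricted fetuses 1 and 4. Both genes were paternal in every fetus that listed them, and neither had enough fetuses for a test.

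COPG2, a coat protein subunit of transport vesicles next to the imprinted gene MEST, was maternal in every fetus that listed it. Its paternal share was 9.84%, 19.8% and 22.2% in overfed fetuses 1, 2 and 4, against 17.9% and 21.97% in restricted fetuses 1 and 4. The groups overlapped, with a logit difference of −0.22 ± 0.36 (SE, limma adjusted p 0.925). Fetuses of the same ram at C94272649T on chromosome 4 had 9.84% in overfed fetus 1, against 17.9% in restricted fetus 1, and 22.2% in overfed fetus 4, against 21.97% in restricted fetus 4. Of genes listed in 1 fetus only, GRB10, an adaptor that dampens insulin signalling, had paternal shares of 28.4% and 29.1% at 2 SNPs in overfed fetus 4. DIRAS3, a paternally expressed small GTPase, was 80.5% paternal in restricted fetus 3. BLCAP, from the list of maternally expressed genes, was on the other side, at 79.5% paternal in overfed fetus 2. Of the others, GATM, PHACTR2 and ZFAT were listed in 1 overfed fetus each, and HTR2A, PPP1R9A and WRB in 1 restricted fetus each.

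The reads per listed SNP stand for the depth of a gene at the SNPs that passed the limits, and not for its whole expression. They were put on a log2 scale with 1 read added, after scaling each library by genes listed in at least 6 of the 8 brains. In whole tissue, fewer cells of a type and less RNA per cell cannot be told apart. limma called 0 of 157 genes (0%), and 11 had an unadjusted p under 0.05 (7.01%), with a smallest adjusted p of 0.692. Of these, 5 were higher in overfed fetuses, ARHGAP21, SORT1, HNRNPH1, MRPL13 and IDH3A, and 6 were lower. On this scale 83 genes were above 0 and 74 below 0 (47.1%). Before scaling, the groups did not overlap for 24 genes with overfed fetuses higher (15.3%) and 9 with them lower (5.73%).

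Over the 134 single SNPs limma also called 0 (0%), with 10 at an unadjusted p under 0.05 (7.46%) and a smallest adjusted p of 0.432. Of these SNPs 81 were above and 53 below 0 (39.6%), and before scaling the groups did not overlap for 23 with overfed fetuses higher (17.2%) and 3 with them lower (2.24%). In the 26 genes listed in all 8 fetuses, edgeR called 0 genes, and DESeq2 called 0 of the 25 to which it gave an adjusted p, with 0 at an unadjusted p under 0.05 by either tool.

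The deepest genes showed the spread. Reads of single genes, and their order and overlap, are given before scaling here and below unless stated. The log2 differences are after scaling. SLC22A17 had 332.5, 228, 207 and 358 reads per listed SNP in overfed fetuses 1 to 4, against 248, 250.25, 92.5 and 255 in restricted fetuses 1 to 4. Restricted fetus 3 was far below the rest, and the other restricted fetuses lay within the overfed range. The log2 difference after scaling was 0.37 ± 0.29 (SE, limma adjusted p 0.769). RPL9, a ribosomal protein, had 77.5, 37, 80.5 and 90 reads in overfed fetuses 1 to 4, against 50, 43, 42 and 56 in restricted fetuses 1 to 4. Before scaling overfed fetus 2 was the lowest, and after scaling restricted fetus 2 was. The other overfed fetuses were the highest in both (log2 difference 0.39 ± 0.19 SE, limma adjusted p 0.705). Without overfed fetus 3 the log2 difference of RPL9 was 0.19.

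PPP2R1A, the scaffold subunit of protein phosphatase 2A, had 222, 165 and 182.5 reads per listed SNP in overfed fetuses 1, 2 and 4, against 132.5, 37 and 152.5 in restricted fetuses 1, 3 and 4. Before scaling all overfed fetuses lay above all restricted ones, but after scaling overfed fetus 4 lay below restricted fetuses 1 and 4. Restricted fetus 3 was again the lowest (log2 difference 0.83 ± 0.41 SE, limma adjusted p 0.705). Without restricted fetus 3 the log2 difference of PPP2R1A was 0.27. CD9, a tetraspanin of the cell surface, had 21, 22 and 21 reads in overfed fetuses 1 to 3, against 27, 100 and 32 in restricted fetuses 2 to 4. Its overfed values stood at the listing limit, below all restricted ones (log2 difference −0.98 ± 0.54 SE, limma adjusted p 0.705), and without restricted fetus 3 the log2 difference of CD9 was −0.32.

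ARV1, a regulator of sterol movement, had 41.5, 21.5 and 30 reads in overfed fetuses 1, 2 and 4, against 43.5, 40.2, 38.8 and 34 in restricted fetuses 1 to 4 (log2 difference −0.58 ± 0.23 SE, limma adjusted p 0.692). PRKCSH, a glucosidase subunit of the endoplasmic reticulum, had 47.5, 32 and 73 reads in overfed fetuses 1, 3 and 4, against 26, 35.5, 24.5 and 40 in restricted fetuses 1 to 4 (log2 difference 0.38 ± 0.20 SE, limma adjusted p 0.705). MFF had 64.5, 39 and 66 reads in overfed fetuses 1, 3 and 4, against 40.5, 28 and 31.5 in restricted fetuses 1, 2 and 4 (log2 difference 0.55 ± 0.30 SE, limma adjusted p 0.705). Before scaling the groups of these 3 genes overlapped. After scaling those of MFF and PRKCSH did not, with the overfed fetuses higher, while those of ARV1 still overlapped. The ARV1 value mixed SNPs that differ between fetuses. At G3717567C on chromosome 25 it had 21.5 and 30 reads in overfed fetuses 2 and 4, against 24 and 34 in restricted fetuses 2 and 4 (log2 difference −0.24 ± 0.26 SE, limma adjusted p 0.838). At A3717609G overfed fetus 1 was higher, with 62.5 reads, against 43.5, 49 and 35 in restricted fetuses 1 to 3. Without overfed fetus 4 the log2 difference was −0.38 for ARV1 and 0.24 for PRKCSH. The remaining genes named by p, RBM5 and LOC101105348, had adjusted p-values of 0.705 by limma with overlapping groups.

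Gene groups of growth, metabolism and the brain held few tested members, and none of their members was called for share or for reads, as for all 157 genes. Of 80 genes of mitochondrial respiration, 4 were tested, ATP5G1, IDH3A, NDUFA2 and SLC25A3, with 2 differences in share above and 2 below 0. ATP5G1, a subunit of ATP synthase, was at 8.26%, 11.3% and 11.6% in overfed fetuses 1, 2 and 4, against 11.5%, 13.3% and 11.6% in restricted fetuses 1, 3 and 4. IDH3A, a subunit of a citric acid cycle enzyme, had 64.8 and 85.2 reads per listed SNP in overfed fetuses 1 and 4, against 40 and 34 in restricted fetuses 1 and 2. The IDH3A groups did not overlap (log2 difference 0.55 ± 0.22 SE, limma adjusted p 0.692). The overfed values also held SNPs other than G29589765T on chromosome 18, which both diets listed. At that SNP IDH3A had 57 and 79.5 reads in overfed fetuses 1 and 4, against 40 and 34 in restricted fetuses 1 and 2. The log2 difference there was smaller, 0.41 ± 0.24 (SE, limma adjusted p 0.552).

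Of 103 genes of the ribosome and translation, 3 were tested, EIF3F and RPL9 among them, and of 56 genes of the neuronal cytoskeleton, KIF5C and DCTN1 were tested. DCTN1, a subunit of the dynein activator dynactin, was at 19.5%, 11.4%, 8.70% and 10.7% in overfed fetuses 1 to 4, against 23.3% and 16.04% in restricted fetuses 1 and 3, with overlapping groups. Of 23 genes of amyloid precursor handling, APOE, SORT1 and NCSTN were tested. APOE, the main lipid carrier of the brain, was at 7.02%, 17.2% and 13.1% in overfed fetuses 1 to 3, against 9.90%, 16.8%, 27.9% and 14.01% in restricted fetuses 1 to 4. APOE was maternal in each, and the groups overlapped. SORT1, a sorting receptor, had 57 and 59.5 reads in overfed fetuses 1 and 4, against 23, 23.5 and 35 in restricted fetuses 1, 3 and 4 (log2 difference 0.64 ± 0.22 SE, limma adjusted p 0.692).

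MAT2A, the enzyme that produces S-adenosylmethionine for methylation reactions, was the 1 tested gene of 52 of DNA and histone methylation. Its paternal share was 12.5%, 6.45% and 15.2% in overfed fetuses 1, 2 and 4, against 15.5% and 12.7% in restricted fetuses 1 and 2, all at G57090279A on chromosome 3. MAT2A was maternal throughout with overlapping groups. THRA, a thyroid hormone receptor, was at 89.7%, 72.3%, 87.3% and 82.4% in overfed fetuses 1 to 4, against 76.5%, 80.0% and 92.7% in restricted fetuses 1, 2 and 4. THRA was paternal in each fetus, again with overlap. GPI of glycolysis, the heat shock gene HSPA1A and the histocompatibility gene OLA-I were the 1 tested member of their groups, and each had overlapping groups for share. Histocompatibility genes are highly variable with close copies, so the values of OLA-I are uncertain. Of 18 informative genes of the insulin axis and 27 of nutrient sensing, no gene could be tested. The same held for 67 informative genes of the synapse.

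The same fetuses also gave kidney and lung libraries, in which the diet difference could be set against that of brain. The paternal side took 47.1% of listed SNPs in kidneys of overfed fetuses and 43.3% in kidneys of restricted fetuses, and 46.4% in lungs of overfed fetuses and 45.6% in lungs of restricted fetuses. The diet difference in brain minus that in kidney was −8.79 percentage points (exact permutation p = 0.0571, adjusted 0.229), and minus that in lung it was −5.83 (exact permutation p = 0.200, adjusted 0.400). Neither passed after adjustment. The kidney lists of overfed fetuses 1 to 4 held 382, 1111, 320 and 838 SNPs, with 47.9%, 43.1%, 55.0% and 42.5% on the paternal side. Those of restricted fetuses 1 to 4 held 1008, 749, 1052 and 225 SNPs, with 42.0%, 40.7%, 41.7% and 48.9% on the paternal side. Whether the side in kidney goes with the size of the list was not tested. Between brain and kidney, limma called 0 of 61 genes for share (0%), with 0 at an unadjusted p under 0.05, and 0 of 61 for reads (0%), with 1 unadjusted. Between brain and lung it called 0 of 81 for share (0%), with 8 unadjusted, and 0 of 81 for reads (0%), with 4 unadjusted. MFF was among both sets in lung, with a difference of differences of −1.04 ± 0.35 (SE) in logit share (limma adjusted p 0.351) and 1.16 ± 0.34 (SE) in log2 reads (limma adjusted p 0.224).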

How the data were processed

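The authors deposited, for each fetal library, a list of SNPs with maternal and paternal read counts. The values are estimated counts that the authors deposited after averaging alignments to a reference and an alternative genome, per the labels and the series' design text, and 65.3% of entries held a value that is not whole. Genotype lists of ram and fetus gave the informative SNPs. The submitters' processing notes name Trimmomatic 0.33, HISAT2 2.0.5, Picard and SAMtools; the variant caller and the genome build are not given in the sources used here. No sex chromosome SNP was used.

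Reads of both alleles were summed per gene or per SNP and paternal base, and features listed in at least 2 fetuses of each diet were fitted with limma 3.58.1 in R 4.3.3 over the 8 brains and the control brains, with control littermates averaged by ewe; p-values were adjusted by the Benjamini-Hochberg method and called under 0.05. Shares were logits with 0.5 reads added, and reads log2 values with 1 added. Library values were compared by exact permutation (70 splits). Scripts were tested on simulated data. Alternatives were other added constants, read minimums, a quasi-binomial model, edgeR 4.0.16 and DESeq2 1.42.0 on rounded counts, fits within ram and leaving out fetuses.

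Named genes were those past a threshold, the 8 with the smallest p for share and for reads among genes listed in 3 fetuses of each diet, imprinted genes listed under both diets, the 5 deepest genes and 8 deepest SNPs listed in all 8 brains, and up to 4 tested members of each gene list. Some items that this rule names are not reported here. The members and lists were chosen with earlier results of these data known. The ram of each fetus was taken from the names of the deposited genotype lists. Nothing in the labels beyond the ewe tells how samples were handled, so technical batches could not be examined.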

Additional observations from a re-analysis of the deposited data

Results flagged for a closer look

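In 76 groups of 4 fetuses examined, 5 held 1 fetus far from the other 3 by Dixon's criterion at its 95% level, while chance flags about 1 in 20 groups. The percent of listed SNPs with the reference base on the paternal side was 71.3% in overfed fetus 3, against 76.5% to 77.4% in the other overfed fetuses. The paternal share of TUBB6 was 92.0% in overfed fetus 2, against 19.5% to 25.9% in the other overfed fetuses. TUBB6 also had 524.5 reads per listed SNP in overfed fetus 2, against 61 to 115 in the other overfed fetuses, and this fetus was listed at a TUBB6 SNP that no other overfed fetus listed. LOC101105348 had 21.8 reads per listed SNP in restricted fetus 3, against 41.7 to 44.9 in the other restricted fetuses. SLC22A17 had 92.5 reads per listed SNP in restricted fetus 3, against 248 to 255 in the other restricted fetuses.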

How the results depend on the processing

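Of the counts of calls, 63 without 1 fetus and 47 under other settings were 0, as reported, and 1 and 3 were not. A fit within rams 1, 3 and 4 called 5 of 104 genes for share. NBR1 at 3.33 and SPG7 at 1.21 were higher, and PPP1R16B at −2.74, SLC25A46 at −1.79 and KLHL17 at −1.75 lower, in overfed fetuses (logit). The limma adjusted p was 0.00551 for SLC25A46 and KLHL17 and 0.0187 for SPG7. The values of NBR1 and PPP1R16B each rested on 1 fetus of each diet, both of ram 3. The quasi-binomial model and the minimum of 30 reads each called 1 gene, KIF5C. Without restricted fetus 1 the contrast of brain with lung called 1 gene for reads, MFF, and the range without 1 fetus was 0 to 1. The cause of these changes was not tested. The difference in percent on the paternal side was −4.93 at SNPs informative in both diets and −5.86 without SNPs informative in 10 or more fetuses. Each had the smallest exact permutation p possible, 0.0286, unadjusted. Both sets were added after the difference had been seen. Over all listed SNPs the difference ran from −6.18 to −4.24 without 1 fetus. Leaving out 1 fetus gave −0.0671 to 0.461 for the percent listed, −0.0833 to 0.917 for the median reads and −0.39 to 0.0614 for the share of COPG2. Same-numbered fetuses of the 2 diets deviated together with correlations of 0.188, 0.097, 0.189 and 0.245 over genes for share. The same-numbered fetuses 1 and 4 also shared a ram. Overfed fetus 2 and restricted fetus 3, both of ram 3, had 0.375, and overfed fetus 3 and restricted fetus 4, both of ram 4, had −0.0744. These values cannot decide whether the numbers pair the fetuses. With the replicate number as a block limma called 0 genes and 0 SNPs for share and for reads. Depth limits the precision of the shares, since the median listed SNP held 28 to 31 reads.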
